A study of Mus musculus with 2 samples.

Results

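The let-7 family of microRNAs (miRNAs) was described on 2 Agilent mouse miRNA arrays, each hybridised with total RNA of c-Kit+ Sca1+ Lineage- bone marrow cells, a fraction rich in hematopoietic stem cells. Members were all mature arms of let-7a, let-7b, let-7c, let-7d, let-7e, let-7f, let-7g, let-7i and miR-98 that the array carries, chosen by name and not by signal. They were 20 of the 1247 mouse miRNAs on the array, 9 of them 5p arms and 11 of them 3p arms, and they were read by 59 probes on 800 spots. The KO array held RNA of mice with floxed Tif1b alleles (CreERT, Tif1bf/f) and the WT array RNA of mice with intact alleles (CreERT, Tif1bw/w). The CreERT transgene, an adult stage and the C57/BL6 background were common to both. Tif1b (Trim28, KAP1) encodes a corepressor that silences retroelements and genes through zinc finger proteins. How and when recombination was induced, which promoter drives CreERT and how many mice gave RNA are not given in the sources used here, and the array has no probe for Tif1b. There was 1 array per genotype, so every difference below describes these 2 arrays and none was tested. Precision is limited by the number of arrays, and fewer cells of a type and less RNA per cell cannot be told apart.

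let-7 was first found in Caenorhabditis elegans, where it times the passage to adult cell fates. In mammals the family restrains growth and self-renewal genes such as Ras, Myc, Hmga2 and Lin28, and the Lin28 proteins in turn block the processing of let-7 precursors. In mouse blood formation, Lin28b marks fetal stem cells and let-7 is associated with the adult programme. Most members lie in small genomic clusters, and let-7a, let-7c and let-7f are each made from more than 1 locus.

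The mature 5p arms are shown because the probes must separate miRNAs that differ by few bases. The seed, bases 2 to 8, which pairs with target mRNAs, is in capitals. Sequences are from RefSeq (GRCm38), in which all 20 member names were found.
mmu-let-7a-5p: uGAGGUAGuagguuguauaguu
mmu-let-7b-5p: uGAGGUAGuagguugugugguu
mmu-let-7c-5p: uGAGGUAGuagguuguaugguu
mmu-let-7d-5p: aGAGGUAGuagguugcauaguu
mmu-let-7e-5p: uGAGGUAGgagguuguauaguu
mmu-let-7f-5p: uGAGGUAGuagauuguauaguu
mmu-let-7g-5p: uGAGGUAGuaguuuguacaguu
mmu-let-7i-5p: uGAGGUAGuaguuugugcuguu
mmu-miR-98-5p: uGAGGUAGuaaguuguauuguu
All 9 shared the seed, so they differ only outside it. Counted from 1 at the 5′ end, with the base of let-7a-5p first, let-7c-5p differs by A19G, let-7e-5p by U9G and let-7f-5p by G12A. let-7b-5p carries A17G and A19G, and let-7d-5p carries U1A and U16C. let-7g-5p carries G12U and U18C, and miR-98-5p carries G11A and A19U. let-7i-5p stands farthest from let-7a-5p, with G12U, A17G, U18C and A19U.

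The loci were taken from RefSeq as well. Mirlet7a-1, Mirlet7f-1 and Mirlet7d lie together on the minus strand of chromosome 13, with Mirlet7f-1 261 bp from Mirlet7a-1 and 1714 bp from Mirlet7d. Their mature 5p arms are at chr13:48538239-48538260 (let-7a-5p), chr13:48537889-48537910 (let-7f-5p) and chr13:48536078-48536099 (let-7d-5p). Mirlet7c-2 (mature arm chr15:85706616-85706637) and Mirlet7b (chr15:85707325-85707346) lie 621 bp apart inside the noncoding gene Lncppara. A second let-7c gene, Mirlet7c-1, gives the same mature arm at chr16:77599672-77599693. Mirlet7f-2 (chrX:151912353-151912374) and Mir98 (chrX:151913229-151913250) lie 785 bp apart inside Huwe1, a ubiquitin ligase gene. Mirlet7g (chr9:106178846-106178867) lies inside Wdr82, Mirlet7e (chr17:17830366-17830387) inside Spaca6 and Mirlet7a-2 inside Mir100hg on chromosome 9, while Mirlet7i (chr10:122985698-122985719) lies in no other annotated gene. The arrays read mature miRNAs, so the signals of let-7a, let-7c and let-7f cannot be assigned to a locus.

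Each 5p arm had 2 probes of 20 spots each. Probes are DNA that pairs with the 3′ part of the miRNA, and the 2 probes of a member differ in length by 1 base. The brighter probes of let-7a-5p, let-7c-5p, let-7e-5p and let-7f-5p are shown because these 4 miRNAs differ from let-7a-5p by at most 1 base, and the probe base that would not pair with let-7a-5p is in capitals.
let-7a-5p probe: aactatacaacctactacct
let-7c-5p probe: aacCatacaacctactacc
let-7e-5p probe: aactatacaacctCctacc
let-7f-5p probe: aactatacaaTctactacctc
All 18 probes for 5p arms matched exactly 1 member over their length, and 12 of them had another member 1 mismatch away. The probes of let-7g-5p, let-7i-5p and miR-98-5p had none closer than 2 mismatches. The let-7e-5p probe, 1 mismatch from let-7a-5p, stayed at 21.0 on the KO array and 10.4 on the WT array while the let-7a-5p probe read 1170 on KO and 1364 on WT. Cross-hybridisation between the other near neighbours was not measured by these arrays.

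The KO array was dimmer as a whole. Its mean processed signal over mouse miRNA spots was 9.14, against 21.9 on the WT array, and 78 miRNAs were measured on KO against 100 on WT, where measured means that more than 50% of a probe's spots were well above background. Among the 113 probes that both arrays measured, the 75th percentile of signal was 213 on KO and 487 on WT. Scaled values are divided by that percentile, a factor of 0.437 for KO over WT. Markers were checked on the same arrays. Of 8 arms of blood-cell miRNAs (miR-142, miR-223, miR-150, miR-155), 3 were measured on KO and 4 on WT, with summed probe signals of 425 on KO and 5734 on WT. miR-223-3p made up most of the WT sum, and miR-155-5p went the other way, with a level of 135 on KO and 94.1 on WT. Of 13 stem and progenitor arms, 3 were measured on each array (sums 416 on KO and 504 on WT), with no arm of miR-125a, miR-125b or miR-99b among them. Erythroid arms (0 of 4) and arms of liver, brain, muscle, stroma and epithelium (0 of 27) were measured on neither array, and their summed signals were below 0 after background subtraction, at -13.3 on KO and -6.69 on WT for the erythroid arms and at -150 on KO and -110 on WT for the others.

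The measured members of the family, apart from miR-98-5p, were among the brighter miRNAs of both arrays. Of the family's 20 arms, 8 were measured on both arrays, all of them 5p arms, where 5.77% of all mouse miRNAs were. The 12 arms measured on neither array were let-7e-5p and the 11 3p arms. The levels of the 8 members, taken as the mean of the 2 probe means and left unscaled, summed to 3701 on KO and 5477 on WT, a ratio of 0.676. Of the summed level of the 72 miRNAs measured on both arrays, the family made up 25.6% on KO and 16.9% on WT. Without miR-223-3p, a granulocyte miRNA with a level of 63.6 on KO and 3726 on WT, these shares were 25.8% and 19.1%. Shares of signal are not shares of molecules, since probes differ in how well they bind.

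**Figure D1:**
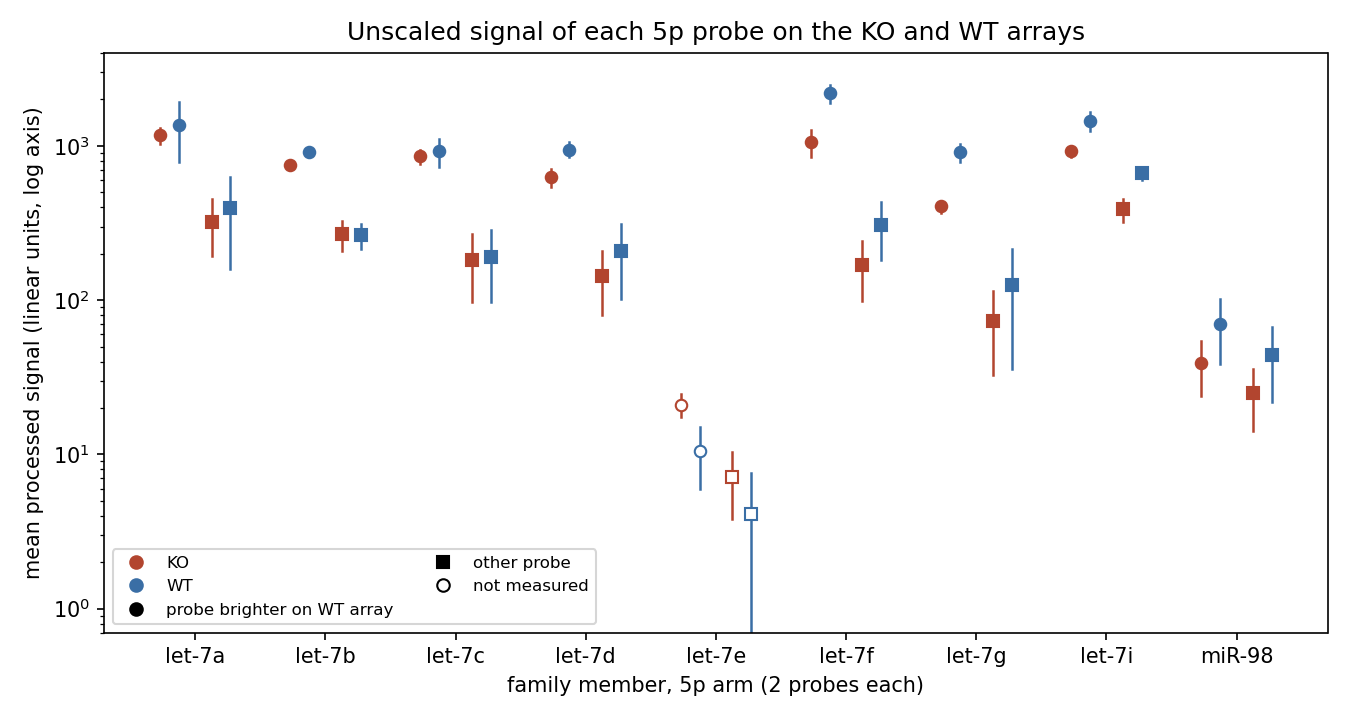
Unscaled mean processed signal of the 18 probes for 5p arms on a log axis, with lines for the SD over spots (cut at the lower edge for a let-7e probe) and the KO array left of the WT array. The let-7a, let-7b and let-7c probes lie close together on the 2 arrays, the let-7f and let-7g probes lie lower on KO, and the let-7e probes are measured on neither.

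let-7a, let-7b and let-7c differed least between the arrays before scaling. The let-7a-5p probes read 1170 ± 135 (spot SD, 16 spots) and 322 ± 128 (19 spots) on KO, against 1364 ± 575 and 395 ± 235 (20 spots each) on WT. The let-7b-5p probes read 755 ± 50.3 (20 spots) and 267 ± 59.9 (17 spots) on KO, against 913 ± 63.8 (19 spots) and 264 ± 48.3 (17 spots) on WT. The let-7c-5p probes read 856 ± 88.8 (18 spots) and 182 ± 85.2 (20 spots) on KO, against 920 ± 187 (19 spots) and 190 ± 92.9 (20 spots) on WT. The spots of all 6 probes overlapped between the arrays, though the brighter let-7b-5p probe was dimmer on KO at all 19 positions unmarked on both. The brighter let-7a-5p probe was brighter on KO at only 1 of 16 such positions, and 4 dim spots entered only its WT mean. The dimmer let-7b-5p probe was the single one of the family's 16 measured probes that was brighter on KO before scaling. A spot SD is technical and says nothing about the spread between mice.

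After scaling these 3 members stood highest in the family. let-7c-5p was at 1.11 on the log2 scale for KO minus WT (2.16-fold, spot SD of the difference 0.56 over 37 spot positions not marked as outliers on either array). let-7b-5p was at 1.06 (2.09-fold, spot SD 0.33, 36 positions). let-7a-5p was at 0.93 (1.91-fold, spot SD 0.68, 35 positions). Before scaling the same members were at -0.083, -0.13 and -0.26. let-7c-5p was brighter on KO before scaling at 15 of 37 positions, let-7b-5p at 10 of 36 and let-7a-5p at 6 of 35. The 2-fold excess of let-7c-5p and let-7b-5p thus came only with the scaling. No member reached 2-fold with quantile normalization, normexp or the stricter filter on dim probes. By total gene signal, the extraction software's own summary, let-7a-5p (1.43) and let-7d-5p (1.08) lay past 2-fold as well, where 33.7% of the 86 miRNAs with a signal on both arrays did.

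let-7d, made from the same chromosome 13 cluster as let-7a and let-7f, lay between the extremes. Its probes read 626 ± 85.5 (19 spots) and 143.5 ± 63.3 (20 spots) on KO, against 947 ± 106 (18 spots) and 207 ± 105 (20 spots) on WT. The brighter probe was dimmer on KO at all 18 positions unmarked on both arrays. The scaled difference was 0.63 (spot SD 0.88, 38 positions) and the unscaled one -0.56.

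let-7f, let-7g, let-7i and miR-98 were dimmer on the KO array by more. The let-7f-5p probes read 1054 ± 211 (18 spots) and 170 ± 71.3 (20 spots) on KO, against 2188 ± 278 (17 spots) and 306 ± 125.4 (20 spots) on WT. The spots of the brighter probe that were not marked as outliers spanned 673 to 1415 on KO and 1650 to 2644 on WT, without overlap, but the 3 marked WT spots, at 555 to 1099, lay inside or below the KO range. The let-7g-5p probes read 406 ± 36.4 (17 spots) and 73.3 ± 40.9 (20 spots) on KO, against 909 ± 118 (16 spots) and 125.6 ± 89.6 (20 spots) on WT. The unmarked spots of the brighter let-7g-5p probe spanned 343 to 465 on KO and 712 to 1123 on WT, with the 4 marked WT spots lower, at 292 to 499, and those of the dimmer probe overlapped. The let-7i-5p probes read 924 ± 75.8 (17 spots) and 388 ± 65.3 (19 spots) on KO, against 1445 ± 204 (18 spots) and 664 ± 65.5 (17 spots) on WT. The unmarked spots of both let-7i-5p probes were dimmer on KO without overlap, at 756 to 1027 on KO and 1055 to 1681 on WT for the brighter and 214 to 480 on KO and 508 to 779 on WT for the other. With the marked spots kept, the 2 arrays overlapped in all of these probes. miR-98-5p was the dimmest measured member, with probes at 39.3 ± 15.4 (20 spots) and 25.1 ± 10.8 (19 spots) on KO, against 69.9 ± 31.4 and 44.2 ± 22.4 (20 spots each) on WT, and its spots overlapped.

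The scaled differences of these 4 were 0.48 for let-7i-5p (spot SD 0.25, 34 positions), 0.37 for miR-98-5p (spot SD 0.79, 39 positions), 0.24 for let-7f-5p (spot SD 0.47, 36 positions) and 0.22 for let-7g-5p (spot SD 1.09, 33 positions). Unscaled they were -0.71, -0.83, -0.95 and -0.97. let-7f-5p and let-7i-5p were brighter on KO at none of their positions before scaling, miR-98-5p at 5 of 39 and let-7g-5p at 4 of 33. The 2 probes of let-7g-5p disagreed most after scaling among these 4, at 0.42 for the dimmer and 0.029 for the brighter.

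**Figure D2:**
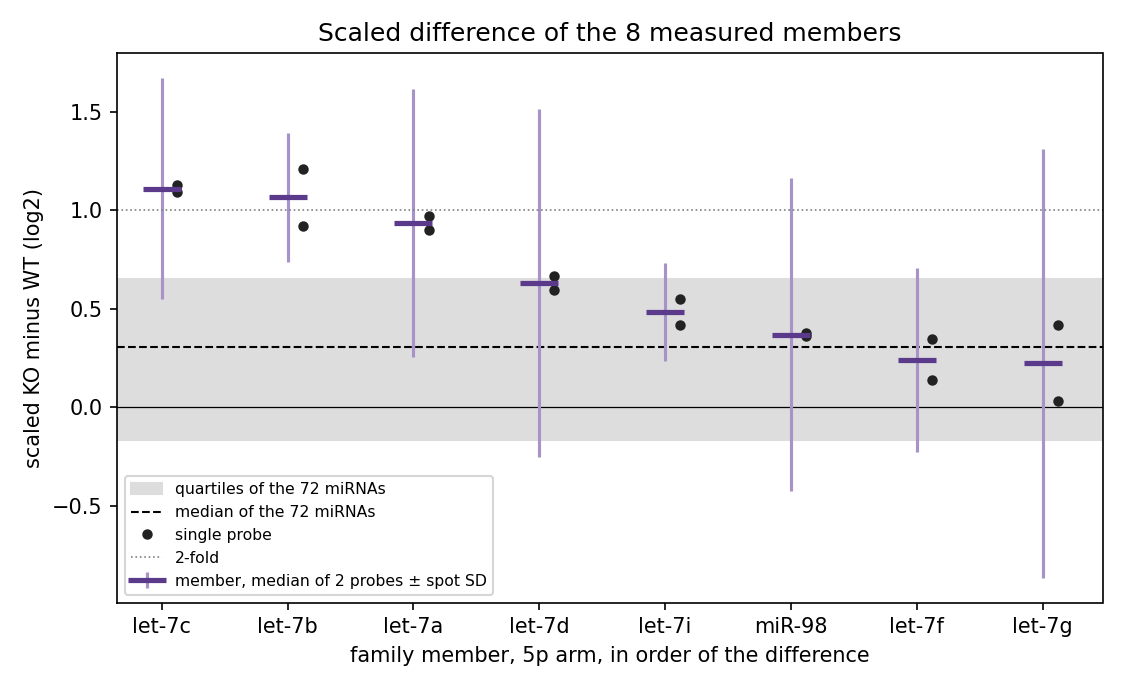
Scaled KO minus WT difference (log2) of the 8 measured members, with bars for the median of the 2 probes, lines for the spot SD of the difference and dots for single probes. let-7c and let-7b lie above the dotted 2-fold line, and let-7f and let-7g lie just under the dashed median of the 72 miRNAs measured on both arrays, at 0.30.

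Among the 8 members the median scaled difference was 0.56, beside 0.30 over all 72 miRNAs measured on both arrays (quartiles -0.17 and 0.65). At least 2-fold higher on KO were 2 of the 8 members (let-7c-5p and let-7b-5p), where 13.9% of all 72 were, and 0 of the 8 were at least 2-fold lower, where 13.9% of all 72 were as well. Relative to the median miRNA, which a common factor cannot change, the family median was 0.25 and no member reached 2-fold, where 8.33% of all 72 were at least 2-fold higher and 13.9% lower. By that measure 6 of 8 members lay above the median miRNA, and let-7f-5p (-0.062) and let-7g-5p (-0.080) lay below it. Without scaling all 8 members were dimmer on KO, where 9.72% of all 72 were brighter, and none was 2-fold dimmer, where 44.4% of all 72 were, or 2-fold brighter, where 1.39% were. With the scaling used here all 8 lay above 0, where 61.1% of all 72 did. let-7g-5p did not stay there, at -0.032 with quantile normalization and -0.13 with the stricter filter. In the ranking of the 72 by scaled difference, the members held places 9, 10, 13, 21, 29, 35, 38 and 39.

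**Figure D3:**
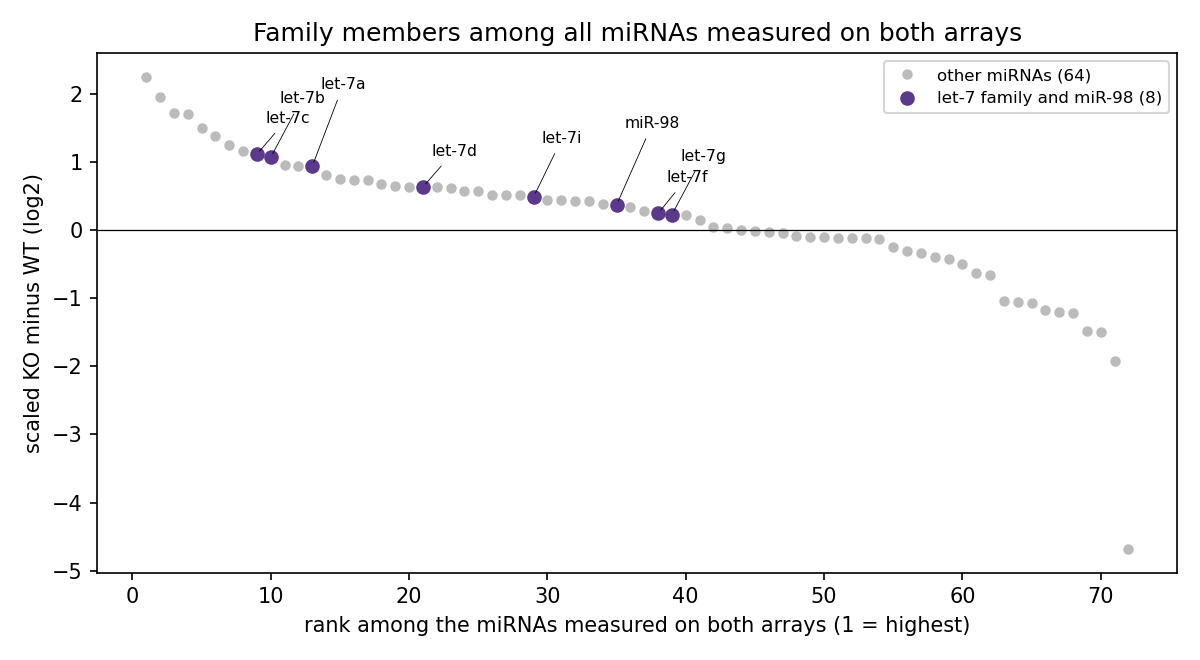
The 72 miRNAs measured on both arrays ranked by their scaled KO minus WT difference (log2), with the 8 family members named. The members lie at ranks 9 to 39, and the lowest point is miR-223-3p.

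Neighbours in the order of differences lay close together. The 7 gaps between neighbouring members ran from 0.018 (let-7f-5p over let-7g-5p) to 0.30 (let-7a-5p over let-7d-5p), or 0.090 to 1.66 times the spot SE of the gap, an error that covers technical noise only. The ends of the order, let-7c-5p and let-7g-5p, were 0.89 apart. let-7a-5p and let-7f-5p, which differ by the single base G12A and share the chromosome 13 cluster, were 0.69 apart, while let-7a-5p and let-7c-5p, which differ by A19G, were 0.18 apart and let-7b-5p and let-7c-5p, which differ by G17A, were 0.045 apart. Over the 28 pairs of measured members the median gap was 0.42. It was 0.18 over the 3 pairs that differ by 1 base and 0.44 over the 8 pairs that differ by 2. For the 7 pairs that differ by 3 bases it was 0.58, and for the 9 pairs that differ by 4 it was 0.41. The 1 pair that differs by 6 was 0.15 apart. Pairs share members, so these values are a description. The gaps of let-7a-5p also depended on which spots were marked. With only positions unmarked on both arrays let-7a-5p was at 0.82, beside 1.12 for let-7c-5p and 0.27 for let-7f-5p. It thus stood farther from let-7c-5p and nearer to let-7f-5p than in the values above.

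The order of differences can be split along a stretch in the middle of the sequence, a grouping noticed after the values were seen. let-7a-5p, let-7b-5p, let-7c-5p and let-7d-5p have G at both base 11 and base 12, and their scaled differences were 0.63 to 1.11. let-7f-5p, let-7g-5p, let-7i-5p and miR-98-5p have another base at 11 or 12, and theirs were 0.22 to 0.48. The gap at the boundary, let-7d-5p over let-7i-5p, was 0.15, or 0.98 times its spot SE. The largest gap between neighbours, 0.30 for let-7a-5p over let-7d-5p, lay between members with G at both bases. With only positions unmarked on both arrays let-7b-5p was at 1.09, let-7a-5p at 0.82 and let-7d-5p at 0.66. There let-7a-5p stood nearer to let-7d-5p than to let-7b-5p. The GG members made up 58.4% of the family signal on KO and 47.5% on WT. The group was picked on the differences, so its larger share on KO is not a separate result. The share of let-7d-5p, a GG member, changed by -0.14 percentage points. Unscaled, the GG members were at -0.56 to -0.083 and the others at -0.97 to -0.71. The split did not hold with normexp, where miR-98-5p, a member dim beside the offset used, moved above let-7d-5p. The GG members also have each other, let-7e-5p or let-7f-5p within 1 mismatch of their probes, whereas of the others only let-7f-5p has such a neighbour, and the part of cross-hybridisation in the split was not tested.

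**Figure D4:**
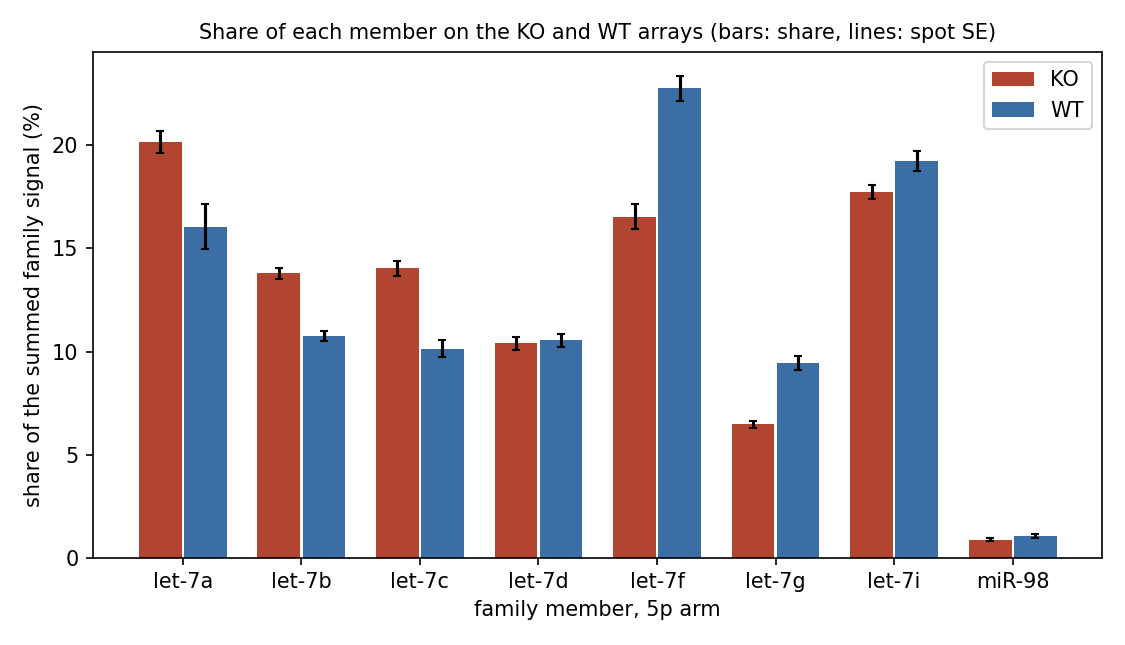
Share of each member in the summed, unscaled family signal (percent), KO bars left of WT bars, with lines for the SE that the spots give. let-7a, let-7b and let-7c take larger shares on KO, and let-7f, let-7g and let-7i take smaller ones.

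Shares within the family do not depend on a common scaling factor. let-7f-5p had the largest share on WT, with 16.5% ± 0.61 (spot SE) on KO and 22.8% ± 0.62 on WT. let-7g-5p stood at 6.47% ± 0.18 on KO and 9.44% ± 0.33 on WT, and let-7i-5p at 17.7% ± 0.33 on KO and 19.3% ± 0.48 on WT. let-7a-5p had the largest share on KO, at 20.2% ± 0.52, against 16.1% ± 1.08 on WT. let-7b-5p was at 13.8% ± 0.26 on KO and 10.75% ± 0.23 on WT, and let-7c-5p at 14.03% ± 0.36 on KO and 10.1% ± 0.42 on WT. let-7d-5p (10.4% on KO and 10.54% on WT) and miR-98-5p (0.869% on KO and 1.04% on WT) moved by less than 1 percentage point. The larger shares of let-7a-5p, let-7b-5p and let-7c-5p and the smaller ones of let-7f-5p, let-7g-5p and let-7i-5p kept their direction in every alternative run for shares, while those of let-7d-5p and miR-98-5p did not. Their sizes moved. The excess of let-7a-5p was 4.09 percentage points, but 2.03 with marked spots kept, 2.33 with spots paired by position and 2.32 without rows above 320. The difference of let-7i-5p was -1.53 points, but -0.66 with the brightest probe, and that of let-7g-5p was -2.97 points, but -5.06 with the stricter filter.

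Part of the spot spread followed position on the array. Of the 384 rows, those numbered above 320 (a limit chosen after the data were seen) gave spots that were dimmer on average on both arrays. This held for every measured member probe with spots there, and probes have different numbers of spots there. The dimmer let-7b-5p probe averaged 273 on KO and 268 on WT up to that row, and 93.6 on KO and 92.8 on WT beyond it, marked spots included. The spot SDs given above include unmarked spots of those rows. The brighter let-7a-5p probe averaged 1170 on KO and 1580 on WT over its 16 spots up to that row, and 406 on KO and 500 on WT over its 4 spots beyond it. The software marked those 4 spots as outliers on KO and none of them on WT, so they entered only the WT mean of let-7a-5p. With only positions unmarked on both arrays the scaled difference of let-7a-5p was 0.82, and without rows above 320 it was 0.85, against 0.93. Its WT share was then 17.8% and 18.2%, against 16.1%. The brighter let-7f-5p probe had no spot beyond row 320.

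**Figure D5:**
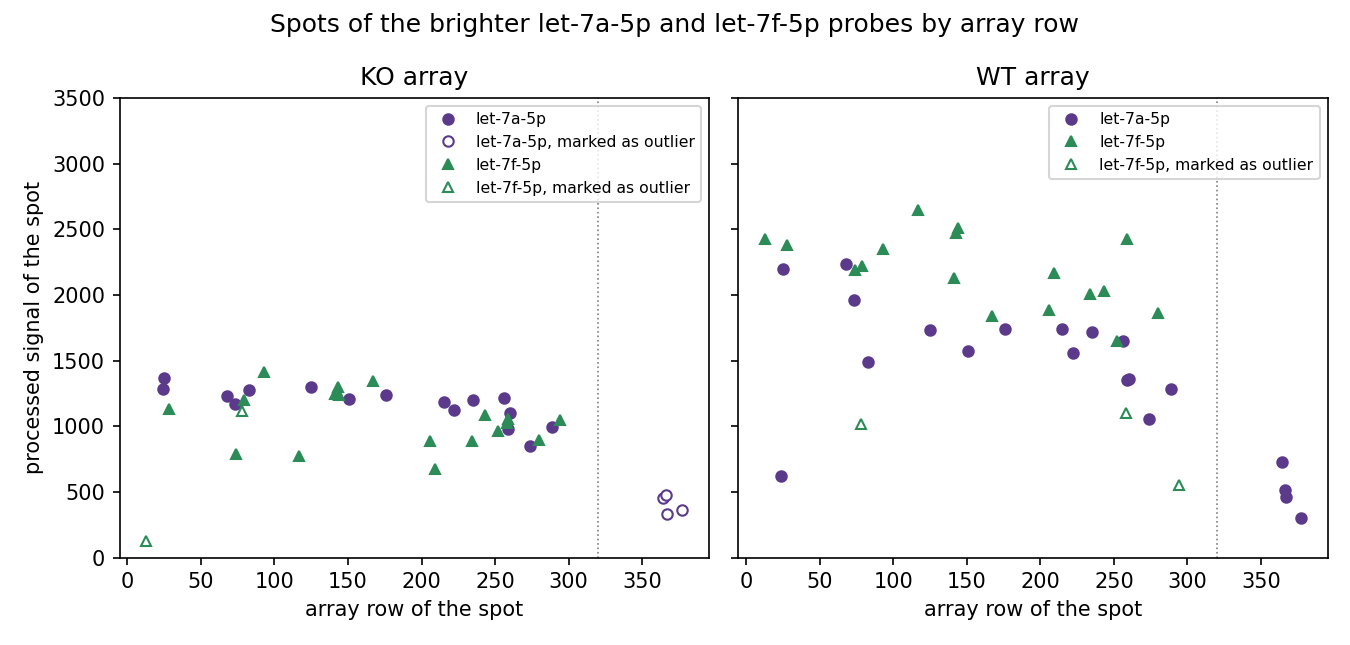
Processed signal of single spots of the brighter let-7a-5p and let-7f-5p probes by array row, KO panel left of the WT panel, with open symbols for spots marked as outliers and a dotted line at row 320. The 4 let-7a-5p spots beyond that line are dim on both arrays and open on KO only, and the unmarked let-7f-5p spots on KO lie below those on WT.

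let-7e-5p, the member encoded beside miR-99b and miR-125a, was not well above background on either array, so no fold is given. Its probes read 21.0 ± 3.43 (17 spots) and 7.10 ± 3.26 (19 spots) on KO, against 10.4 ± 4.52 and 4.09 ± 3.46 (19 spots each) on WT. Of the spots of its brighter probe, 35.3% were well above background on KO and 0% on WT. Before scaling that probe was brighter on KO at 15 of 16 positions, whereas the levels of the 8 measured members were all lower on KO. The software's total gene signal for let-7e-5p was 5.94 on KO and the floor value of 0.1 on WT.

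No 3p arm was measured. In general, passenger strands are degraded when the other strand is loaded into Argonaute, which these arrays did not test. The 3p probes were 12 to 22 bases long and the 5p probes 18 to 22. How far probe length limited the 3p signals was not tested. The 41 probes of the 11 3p arms read -4.76 to 19.3 on KO (median 2.42) and -4.15 to 16.3 on WT (median 2.97), and 0 of the 11 arms were measured on either array, where 7.85% of all 3p arms on the array were and 10.1% of all 5p arms. The highest values belonged to the longest probe of let-7d-3p (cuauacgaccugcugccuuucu, chr13:48536024-48536045, printed as the single 3p arm with any spots well above background), at 19.3 ± 2.26 (7 spots) on KO and 16.3 ± 5.56 (9 spots) on WT, with 14.3% of spots well above background on KO and 44.4% on WT. let-7d-3p was also the only 3p arm to which the software gave a total gene signal above its floor, at 2.73 on KO and 2.31 on WT. The probes of the other 10 arms were at 7.97 or less on KO and 6.86 or less on WT. In RefSeq the 3p arm of Mirlet7c-2 has the same sequence as let-7a-1-3p, so the let-7a-1-3p probes would read both.

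miR-1961 and let-7k are the other mouse miRNAs on the array with the same bases 2 to 8, and all their probes were below 0 on both arrays. Of the 11 arms of miR-99a, miR-99b, miR-100, miR-125a and miR-125b, which are encoded in clusters with let-7c, let-7e and let-7a, 0 were measured on KO, where 6.26% of all 1247 miRNAs were, and 1 on WT, where 8.02% were. This was miR-99a-5p, whose brighter probe read 12.9 on KO and 31.7 on WT. Outside these lists, the miRNAs whose scaled difference came nearest to the family median of 0.56 were miR-10a-5p (0.57), miR-466i-5p (0.57), miR-92a-3p (0.51), miR-3096b-5p (0.51) and miR-6243 (0.51). This likeness rests on 1 difference between 2 arrays.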

How the data were processed

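Spot intensities of 2 Agilent 1-colour arrays (100 ng total RNA, Cy3) were deposited. Agilent Feature Extraction (version 10.7.3, according to the submitters' processing notes) was used by the authors. It subtracted a spatial trend without other background correction and recorded no between-array normalization, per the file headers, and both arrays shared 1 slide. The deposited value table equals the software's total gene signal within 0.1% for all 1247 mouse miRNAs, with a floor of 0.1, its median in both columns.

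For each probe, processed signals were averaged over spots not marked as outliers (4.59% marked on KO, 5.16% on WT). Scaling used the 75th percentile of the 113 probes that both arrays measured. A miRNA takes the median log2 difference over its measured probes. The spot SD of a difference pools log2 ratios over positions unmarked on both arrays with signal above 0, and the spot SE of a share follows by error propagation. No member spot was saturated. With 1 array per genotype there is no test. Alternatives numbered 13 planned and 2 added after the data were seen. Of the planned ones, keeping only probes that match 1 member dropped no probe, so it could change nothing. The run on the series value table repeats the run on total gene signal. Members, lists and rules were chosen with earlier results of these data known. Named are all member arms, miRNAs sharing their seed, miRNAs of shared clusters and the 5 nearest in difference. The procedure was checked on simulated data that had no marked spots and no row effect, so the check does not cover these. Software was Python 3.11.15, numpy 2.4.6, pandas 2.3.3, R 4.3.3 and limma 3.58.1 (normexp, offset 50).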

Additional observations from a re-analysis of the deposited data

How the results depend on the processing

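No paired analysis was possible because only 1 array stands for each genotype. Scaling set the sign of the family's difference. With the 75th percentile over all probes and with no scaling, the family median was -0.53 and -0.64 (0.56 as reported), the summed signal -0.46 and -0.57 on the log2 scale (0.63 as reported) and the number of members at least 2-fold higher 0 and 0 (2 as reported). Of the 3105 mouse miRNA probes, 113 were measured on both arrays, so the percentile over all probes falls among probes not measured. These 2 settings lie close together and are not separate evidence. With the percentile over all probes every measured member except let-7c-5p (0.019) was below 0, and without scaling every one was. Of the members at least 2-fold higher as reported, let-7b-5p then turned to -0.027 and -0.13, and without scaling let-7c-5p turned to -0.083. By total gene signal and by the series value table alike, the family median was 1.03, the summed signal 1.10, the number at least 2-fold higher 4 (by total gene signal 33.7% of all 86 miRNAs with a signal were, against 13.9% as reported) and the number of 3p arms with a signal 1 (0 as reported). With quantile normalization, normexp and the stricter filter 0 members were at least 2-fold higher, and with the brightest probe 1 was. Relative to the median miRNA the family median was -0.26 with no filter (0.25 as reported), where the median covers 477 miRNAs, most of them near background; over the other settings that could change it, it stayed above 0. let-7g-5p was also below 0 with quantile normalization (-0.032) and the stricter filter (-0.13). The split by bases 11 and 12 did not hold with normexp, where let-7d-5p (0.52) lay below miR-98-5p (0.64), and a common scaling factor cannot change it. normexp was run with an offset of 50, beside which the miR-98-5p level was 32.2 on KO and 57.1 on WT. With the stricter filter miR-98-5p was not measured. The cause of these changes was not tested. Signal over background limits miR-98-5p, let-7e-5p and all 3p arms.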

Other observations

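let-7e-5p and its neighbour miR-125a-5p each had a probe near background that was brighter on KO, singled out after the values were seen. Mirlet7e (17830352 to 17830444) and Mir125a (17830812 to 17830879) lie on chromosome 17 (GRCm38). The brighter miR-125a-5p probe read 20.6 ± 8.31 on KO and 2.15 ± 3.92 on WT, with 47.4% of spots well above background on KO and 0% on WT, beside 21.0 on KO and 10.4 on WT for let-7e-5p. The other miR-125a-5p probe read 0.72 on KO and -1.57 on WT, with 0% of spots well above background on either array. The other miRNA of the locus, miR-99b-5p, was below 0 on both arrays in both of its probes. None of these probes counted as measured, so no fold is given. For miR-125b-5p the brighter probe was at 13.1 ± 12.2 on KO and 18.4 ± 11.6 on WT.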
